A study of Homo sapiens with 12 samples.

Results

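The 37 genes described here encode the machinery that brings proteins into mitochondria and folds them there. They were chosen from a written list of import and folding genes, by function and not by a threshold on their values, and all 37 listed symbols were found among the 19112 genes of a genome-wide knockout screen, each with 4 sgRNAs. By role they form 8 classes. These are 7 genes of TOM, the entry gate in the outer membrane, 5 small TIMs, 2 genes of TIM22, 10 genes of TIM23 and its motor, 4 genes of SAM, 3 of presequence processing, 3 of the disulfide relay and 3 matrix chaperones. TIMM10B, a small TIM that sits on the carrier translocase, was counted with TIM22.

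Nearly all mitochondrial proteins are made in the cytosol and enter through TOM. From there, proteins with a presequence pass through TIM23 into the matrix, pulled by the chaperone HSPA9 and its helpers, where peptidases remove the presequence and HSPD1 and HSPE1 help them fold. Carrier proteins are escorted by small TIMs to TIM22, barrel proteins of the outer membrane are inserted by SAM, and small cysteine-rich proteins of the intermembrane space are trapped there by the disulfide relay. Transport through TIM23 and TIM22 needs the membrane potential of the inner membrane.

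HEK293 cells, a human embryonic kidney line, carried the Brunello library, in which each cell receives a guide that disrupts a single gene. They were grown for 15 days in the ethanol solvent (EtOH), in 15 µM actinonin (ACT), which leads to aberrant mitochondrial translation, in 5 µg/mL chloramphenicol (CAP), which stalls the mitochondrial ribosome, or in the combination (ACT CAP). Each of the 4 conditions had 3 replicates, which the study describes as independent. The study describes infections made in 3 independent replicates, and a puromycin-selected, expanded pool that was then divided among the conditions. Whether a replicate of 1 condition shared its infection with a replicate of another is not stated. The table gives, for each gene and condition, a beta, which is the fitted change in guide abundance over all replicates and guides against a reference it does not name, and a z, which is beta divided by its standard error (SE). A lower z means a loss of guides that is larger relative to its SE, and not always a lower beta. In ACT, for example, HSPE1 had a beta of -1.24 at a z of -4.68, and TIMM8B a beta of -0.609 at a z of -7.11.

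These are values per condition. Single replicates, single guides and read depths were not analysed here, and the error of a value is the SE of the fit. Most genes have a negative z, with an all-gene median of -2.03 (EtOH), -1.73 (ACT), -1.78 (CAP) and -1.70 (ACT CAP), so each z is read against other genes. The joined SE takes the conditions as independent of each other. Pairs of conditions were set against each other by their z difference. Each comparison was also tested on the beta difference divided by its joined SE, then centred and scaled over all genes, which is called the scaled difference. A gene was called where the 2-sided normal p of this value, adjusted over all 19112 genes, was under 0.05. Set against EtOH, the smallest called value was 3.43 for ACT, 3.85 for CAP and 3.82 for the combination. It was 3.53 between ACT and the combination, 3.56 between the single drugs and 3.63 for the interaction of the drugs. No p is given for single genes, because the normal p is approximate with 3 replicates per condition.

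In EtOH most import genes already had a z below the median of all genes, many of them only moderately so. The median z of the 37 genes was -3.47, against -2.03 over all genes, and no member had a z above 0. In the lowest 10% of all genes, which lay at -4.30 or less, were 10 of the 37. Ordered by beta, 20 of the 37 were in the lowest 10%. The median z of the members was -4.26 with ACT, -3.93 with CAP and -3.85 with both, lower than in EtOH in each drug, while that of all genes was higher. ACT gave the lowest z of the 4 conditions for 16 of the 37 members (43.2%), against 24.9% of all genes. The pattern was not particular to the members. ACT also gave the lowest z for 5 of 8 genes of the cytosolic chaperonin CCT (62.5%). Among 19 further import and folding genes, which are described below, this held for 6 (31.6%).

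**Figure D1:**
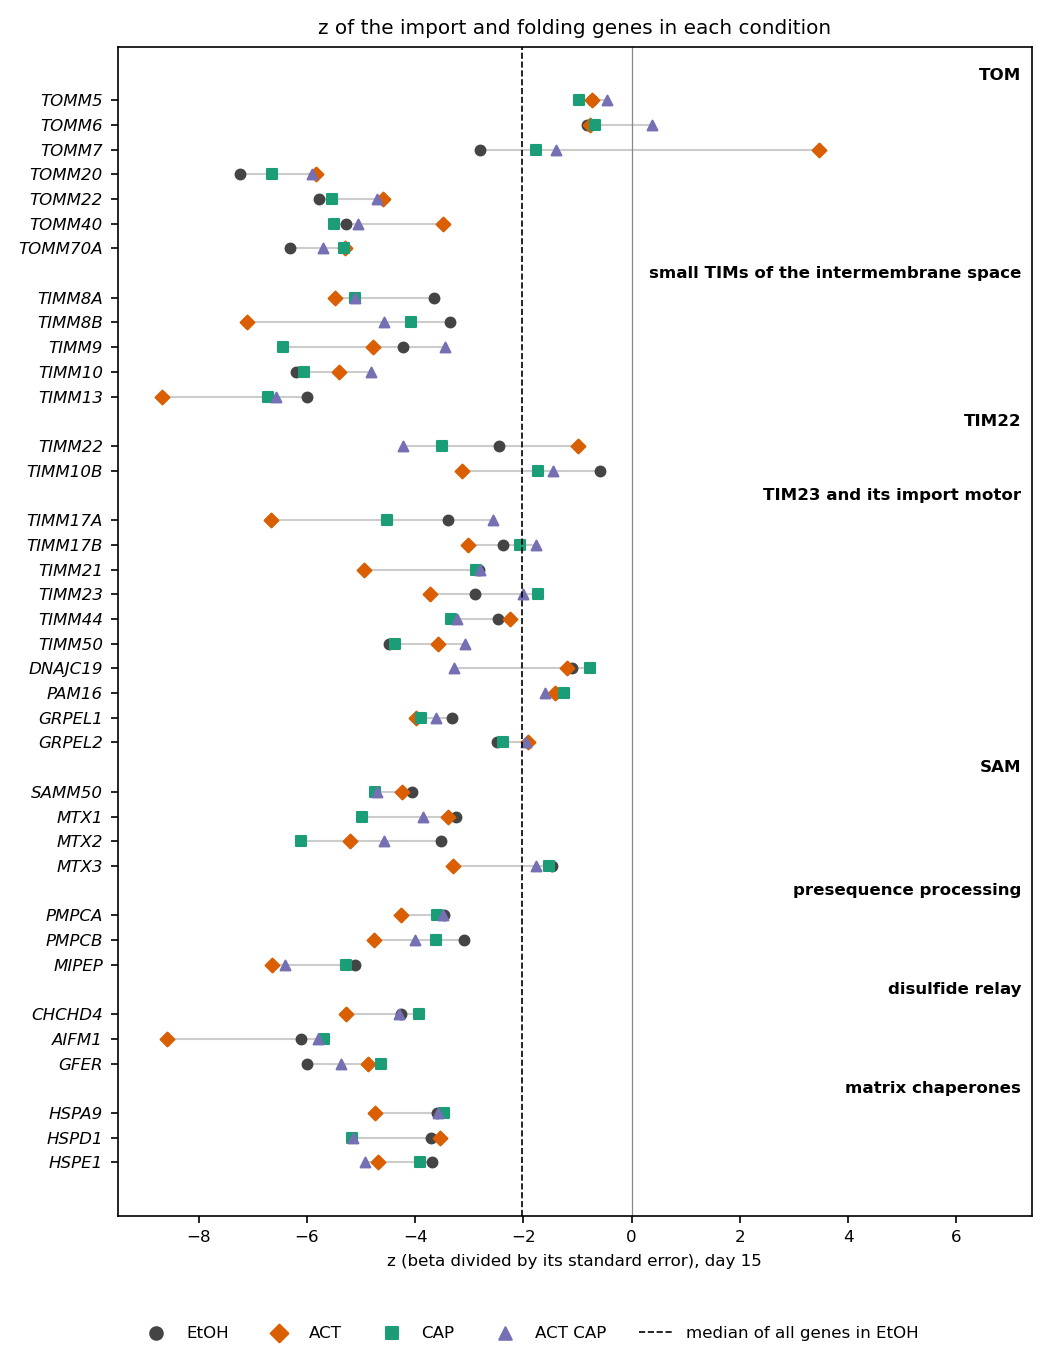
z of each of the 37 genes in the 4 conditions (horizontal axis, no unit), grouped by import class, with a grey line from the lowest to the highest of the 4 values. TOMM7 in ACT, at 3.46, is the only value well above 0, and the ACT values of TIMM8B, TIMM13, TIMM17A and AIFM1 are the far points on the left of their rows.

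Of the 37 genes, 2 were called in any of the comparisons, and in opposite directions. The share of all genes called in any comparison was not counted, and shares for each comparison are given below. Guides against TOMM7, a small subunit of TOM, rose in ACT. Guides against TIMM17A, a channel subunit of TIM23, were rarer in ACT than in ACT CAP. Both also passed the interaction test, which asks whether the effect of ACT was the same with and without CAP.

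TOMM7 is a small membrane subunit that shapes the TOM complex and is also known for holding the kinase PINK1 on depolarised mitochondria. Its z was -2.80 in EtOH, 3.46 with ACT, -1.76 with CAP and -1.40 with both. Its beta was -0.207 (SE 0.0739), 0.256 (SE 0.0739), -0.130 (SE 0.0739) and -0.104 (SE 0.0740) in the same order. The ACT value was thus the sole positive one, and the other 3 lay below 0. In ACT, 99.7% of all genes had a z at or below that of TOMM7, compared with 31.3% in EtOH. The ACT z had stood as a calendar date in the table and was recomputed from the sign of its intact beta and the deposited Wald p-value.

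From EtOH to ACT the z of TOMM7 rose by 6.26, with a beta difference of 0.463 (SE 0.105) and a scaled difference of 4.74, the 50th largest z difference of the 19112 genes. It was the single member called higher in this comparison, 1 of 37 against 1.08% of all genes, and 4.02% of all genes had a z difference of 3 or more. TOMM7 was also higher in ACT than in CAP, by 5.22 (beta difference 0.386, SE 0.105, scaled difference 4.70), where 0.46% of all genes were called higher. Against ACT CAP it was higher by 4.86 (beta difference 0.360, SE 0.105, scaled difference 4.65), where 0.534% were called higher. In CAP and ACT CAP its z differed from EtOH by 1.04 and 1.40, with scaled differences of 0.751 and 1.03 that did not pass. The scaled interaction was -3.77, for which 0.513% of all genes were called lower. These comparisons share the ACT values or the EtOH values and are not independent of each other. When the ratio was set against a standard normal null in place of the spread of all genes, which is 0.742 to 0.888 in the comparisons that hold ACT and 0.752 for the interaction, TOMM7 still passed against EtOH but not against CAP (3.69), against ACT CAP (3.44) or in the interaction (-2.95).

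The other TOM genes were either far below the median of all genes or above it. TOMM20 and TOMM70A, the receptors for presequences and for carriers, had a z in EtOH of -7.24 and -6.31. TOMM22, a further receptor, and TOMM40, the channel itself, had -5.79 and -5.29. All 4 lay in the lowest 10% of genes in EtOH. The small subunits TOMM5 and TOMM6, with -0.740 and -0.830, lay above the median of all genes, and their z ran from -0.973 to -0.460 and from -0.830 to 0.380 over the 4 conditions.

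In ACT the z of TOMM20 was -5.84, that of TOMM22 -4.59, that of TOMM40 -3.48 and that of TOMM70A -5.29. Each was less negative than in EtOH, by 1.41, 1.20, 1.80 and 1.02, and none passed the test (scaled differences 0.554 to 1.19). The median z difference of the 7 TOM genes was 1.20 with ACT, 0.252 with CAP and 1.07 with both, against 0.317, 0.285 and 0.360 for all genes. For genes that are low in EtOH such a shift was common. With a running median over genes ordered by the EtOH z removed, the median of the TOM genes was 0.0185 with ACT, -0.507 with CAP and -0.276 with both. Ordered instead by the mean z of the conditions compared, it was 0.681, -0.368 and 0.283, so the size of the ACT shift and the sign with both drugs depended on how the trend was removed.

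**Figure D2:**
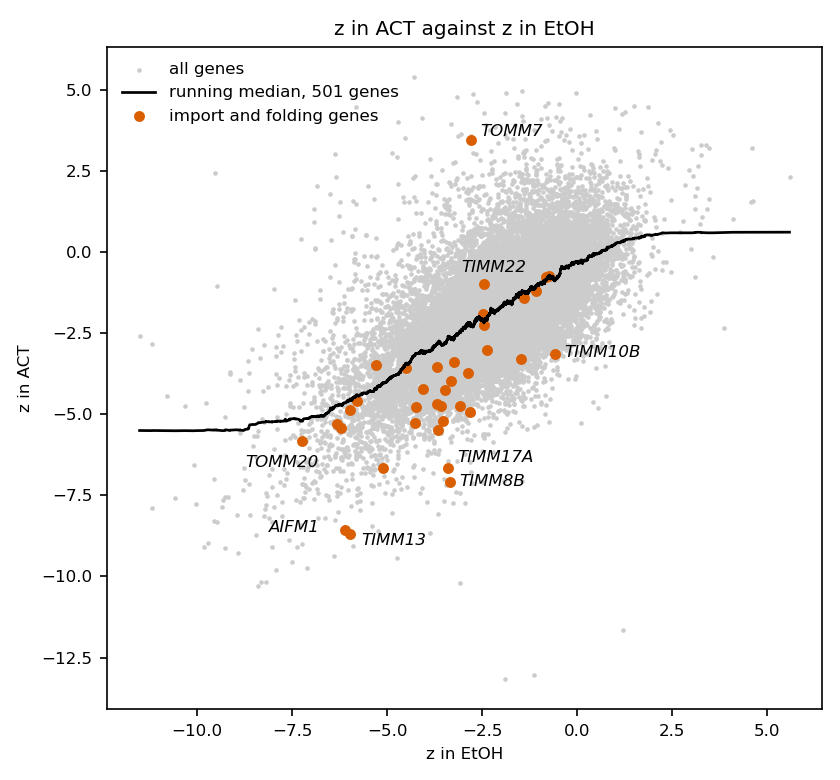
z in ACT (vertical axis) against z in EtOH (horizontal axis) for all 19112 genes (grey) and the 37 import and folding genes (orange), with the running median of genes ordered by z in EtOH (black line). TOMM7 lies far above the line, TIMM22 a little above it, and TIMM17A, TIMM8B, TIMM13, AIFM1 and TIMM10B below it.

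The TIM23 channel has a pair of alternative TIMM17 subunits, and their values differed. TIMM17A, known as a short-lived subunit that cells remove under stress, had a z of -3.40 in EtOH, -6.67 with ACT, -4.52 with CAP and -2.57 with both. The lowest value was that in ACT and the highest that in the combination. Its beta was -0.283 (SE 0.0833), -0.557 (SE 0.0836), -0.377 (SE 0.0834) and -0.214 (SE 0.0835). Between ACT and ACT CAP the z difference was -4.10 (beta difference -0.343, SE 0.118, scaled difference -3.90). TIMM17A was 1 of 37 members called lower there, against 0.288% of all genes, and ranked 36 from the bottom of all genes. The interaction passed as well, with a scaled value of 3.65 (beta 0.437, SE 0.167), for which 0.0994% of all genes were called higher. Against a standard normal null neither passed, with -2.91 and 2.62, nor did they at an adjusted p of 0.01.

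Against EtOH the TIMM17A difference in ACT was -3.27, beyond -3, but its scaled difference of -2.86 did not pass. TIMM17B, the other form, had a z of -2.38 in EtOH, -3.01 with ACT, -2.07 with CAP and -1.77 with both. Its difference between ACT and ACT CAP was -1.24 (scaled difference -1.17) and its scaled interaction 0.785, neither of which passed. The difference between the paralogs was not tested.

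Among the other genes of TIM23 and its motor none was called in any comparison. TIMM21, which links the channel to the respiratory chain, had a z of -4.94 in ACT and between -2.87 and -2.80 in the other conditions. Its difference from EtOH in ACT was -2.12 (scaled difference -1.94). TIMM23, the central channel subunit, had -2.88 in EtOH, -3.72 with ACT, -1.74 with CAP and -2.01 with both, and TIMM23B, a near-identical copy that guides may also cut, had -0.594, -2.54, -1.37 and -0.950.

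TIMM50, the receptor of the complex, had -4.49 in EtOH and was the only gene of this class in the lowest 10% there, with -3.57 with ACT, -4.37 with CAP and -3.07 with both. TIMM44, the membrane anchor of the motor, had -2.46, -2.24, -3.33 and -3.23 in the same order. Of the J-proteins that drive or restrain the motor, PAM16 ran only from -1.60 to -1.24 over the 4 conditions. DNAJC19 had -1.09, -1.19 and -0.773 in EtOH, ACT and CAP and -3.27 in ACT CAP, a difference from EtOH of -2.18 (scaled difference -2.54) that did not pass. CORO7-PAM16, a read-through gene that contains PAM16, had -2.85 in EtOH, -0.270 with ACT, -1.67 with CAP and -1.28 with both, and whether the guides are shared was not tested.

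GRPEL1 and GRPEL2 are nucleotide exchange factors that recharge HSPA9. GRPEL1 had a z of -3.33 in EtOH, -3.98 with ACT, -3.89 with CAP and -3.61 with both, and GRPEL2 had -2.49, -1.92, -2.37 and -1.94. The betas of GRPEL1 lay between -0.778 and -0.637 with SEs of 0.191 to 0.196, and those of GRPEL2 between -0.243 and -0.188 with SEs of 0.0976 to 0.0978. GRPEL1 thus had the lower values in every condition, and neither gene moved by more than its SE of beta between conditions. The 10 genes of TIM23 and its motor had a median z difference from EtOH of -0.367 with ACT, 0.121 with CAP and 0.284 with both. After the all-gene median of each condition was subtracted from z, the last 2 turned to -0.132 and -0.0457.

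**Figure D3:**
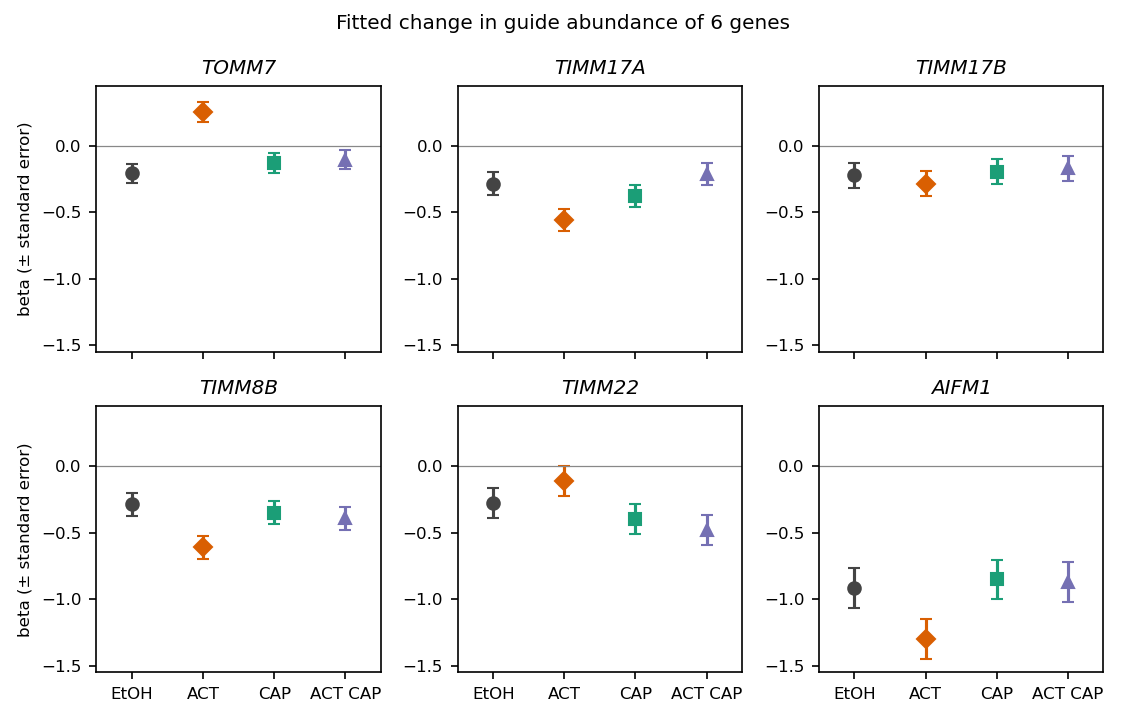
Beta with its standard error (vertical axis, fitted change in guide abundance) in the 4 conditions for 6 genes, on the same scale. TOMM7 is above 0 only in ACT, while TIMM17A, TIMM8B and AIFM1 are lowest in ACT, TIMM17B shows little spread and TIMM22 is highest in ACT.

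Small TIMs carry hydrophobic proteins through the intermembrane space. All 5 were low, with a z in EtOH between -6.21 and -3.35. In ACT and in CAP all 5 were in the lowest 10% of genes, compared with 2 in EtOH and 4 in ACT CAP. TIMM8B, a partner of the TIMM8-TIMM13 chaperone, had a z of -3.35 in EtOH, -7.11 with ACT, -4.08 with CAP and -4.57 with both. Its ACT value was the farthest from the others. The difference from EtOH in ACT was -3.76 (beta difference -0.323, SE 0.121), past -3, and its scaled difference of -3.25 fell short of the test. It was also the sole member at -3 or less between ACT and CAP (-3.02, scaled difference -2.81), where 0.926% of all genes were at -3 or less, 1.49% at 3 or more and 0.298% called lower, and where TOMM7 alone of the 37 was at 3 or more and 0 of the 37 were called lower.

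TIMM13, which pairs with TIMM8 proteins, had a z of -5.99 in EtOH, -8.69 with ACT, -6.73 with CAP and -6.57 with both. In ACT only 22 of all genes had a lower z, and the difference from EtOH was -2.69 (scaled difference -2.47). TIMM8A, the gene of deafness-dystonia syndrome, had -3.65 in EtOH and between -5.48 and -5.11 in the 3 drug conditions. Its differences from EtOH were -1.83, -1.45 and -1.46 in ACT, CAP and ACT CAP, none of which passed.

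TIMM9 and TIMM10 form the other small TIM chaperone, which escorts carriers. TIMM9 had a z of -4.23 in EtOH, -4.78 with ACT, -6.44 with CAP and -3.45 with both. It was lowest in CAP, by -2.21 against EtOH (scaled difference -2.47), which did not pass. TIMM10 had -6.21, -5.41, -6.05 and -4.81, each drug value less negative than EtOH. The median difference of the 5 small TIMs from EtOH was -1.83 with ACT, -0.735 with CAP and -0.583 with both, against 0.317, 0.285 and 0.360 for all genes, and it was below 0 under each scaling of z. All 5 had a positive z interaction, with a median of 2.85 against -0.245 for all genes, though none of the 5 passed alone (scaled interaction 0.466 to 2.52).

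At the carrier translocase the pair of genes pointed in opposite directions in ACT. TIMM22, its channel, had a z of -2.44 in EtOH, -0.981 with ACT, -3.51 with CAP and -4.22 with both. Its difference between ACT and ACT CAP was 3.24 (beta difference 0.368, SE 0.160), with a scaled difference of 3.12 that did not pass. A z difference of 3 or more was found there for 2 of the 37 genes, TIMM22 and TOMM7, against 1.25% of all genes, and of -3 or less for 1, TIMM17A, against 0.665%. TIMM10B had -0.578 in EtOH, -3.14 with ACT, -1.73 with CAP and -1.45 with both. Its difference from EtOH in ACT was -2.56 (scaled difference -2.29), which did not pass either.

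The genes of SAM lay below EtOH in every drug condition, though some differences were near 0. That of MTX3 in CAP was -0.0497 and that of MTX1 in ACT -0.142. None of these genes was called in any comparison. SAMM50, the barrel that inserts other barrels, had a z of -4.05 in EtOH, -4.24 with ACT, -4.75 with CAP and -4.70 with both. MTX2, a metaxin on its cytosolic face, had -3.53, -5.21, -6.11 and -4.57, and MTX1, its partner, had -3.24, -3.39, -4.99 and -3.85. Both metaxins were lowest in CAP.

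The difference of MTX2 from EtOH in CAP, -2.58 (beta difference -0.218, SE 0.119, scaled difference -2.85), was the largest of the 37 in that comparison and did not pass. MTX3, related to MTX1, had a different pattern, with -1.47 in EtOH, -3.30 with ACT, -1.52 with CAP and -1.77 with both. Its difference from EtOH in ACT was -1.84 (scaled difference -1.72). The median z difference of the 4 genes from EtOH was -0.933 with ACT, -1.22 with CAP and -0.626 with both.

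All 3 genes of presequence processing were lowest in ACT. PMPCA and PMPCB, the subunits of the matrix processing peptidase, went from -3.47 and -3.09 in EtOH to -4.26 and -4.75 in ACT. In CAP they had -3.59 and -3.61, and in ACT CAP -3.49 and -3.99. MIPEP, which trims a further short peptide from some imported proteins, had -5.11 in EtOH, -6.65 with ACT, -5.28 with CAP and -6.41 with both. No value of the class passed, and the largest of its differences from EtOH was that of PMPCB in ACT, -1.66 (scaled difference -1.59).

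The disulfide relay was among the most costly classes to lose. CHCHD4, the oxidoreductase that traps cysteine-rich proteins, had a z of -4.27 in EtOH, -5.29 with ACT, -3.93 with CAP and -4.30 with both. AIFM1, the flavoprotein that holds CHCHD4 at the inner membrane and is needed for complex I, had -6.11, -8.58, -5.68 and -5.80. GFER, which reoxidises CHCHD4, had -5.99, -4.87, -4.63 and -5.37.

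CHCHD4 and AIFM1 were thus lowest in ACT, and GFER in EtOH. For AIFM1 the ACT z differed by -2.47 from EtOH (beta difference -0.388, SE 0.213, scaled difference -2.30), by -2.90 from CAP (scaled difference -2.77) and by -2.78 from ACT CAP (scaled difference -2.70). None of these passed. In ACT only 25 of all genes had a lower z than AIFM1.

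The matrix chaperones had nearly the same z in EtOH, from -3.70 to -3.60. HSPA9, the motor chaperone mortalin, had -4.74 with ACT, -3.46 with CAP and -3.57 with both. HSPD1, the chaperonin, had -3.54, -5.17 and -5.14 in the same order, and HSPE1, its lid, had -4.68, -3.91 and -4.93. HSPD1 and HSPE1 act together. The former lay lower in CAP than in ACT (scaled difference of ACT from CAP 1.46) and the latter did not (-0.784). Neither value passed, and the difference between these genes was not tested.

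Their betas were among the lowest of the 37, between -1.25 and -0.848 for HSPD1 and between -1.31 and -0.963 for HSPE1, but with SEs of 0.238 to 0.265, so that none of their differences passed (scaled differences from EtOH -1.85 to -0.136). The read-through gene HSPE1-MOB4, which contains HSPE1, had a z of -3.44 in EtOH, -2.17 with ACT, -3.38 with CAP and -4.57 with both.

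**Figure D4:**
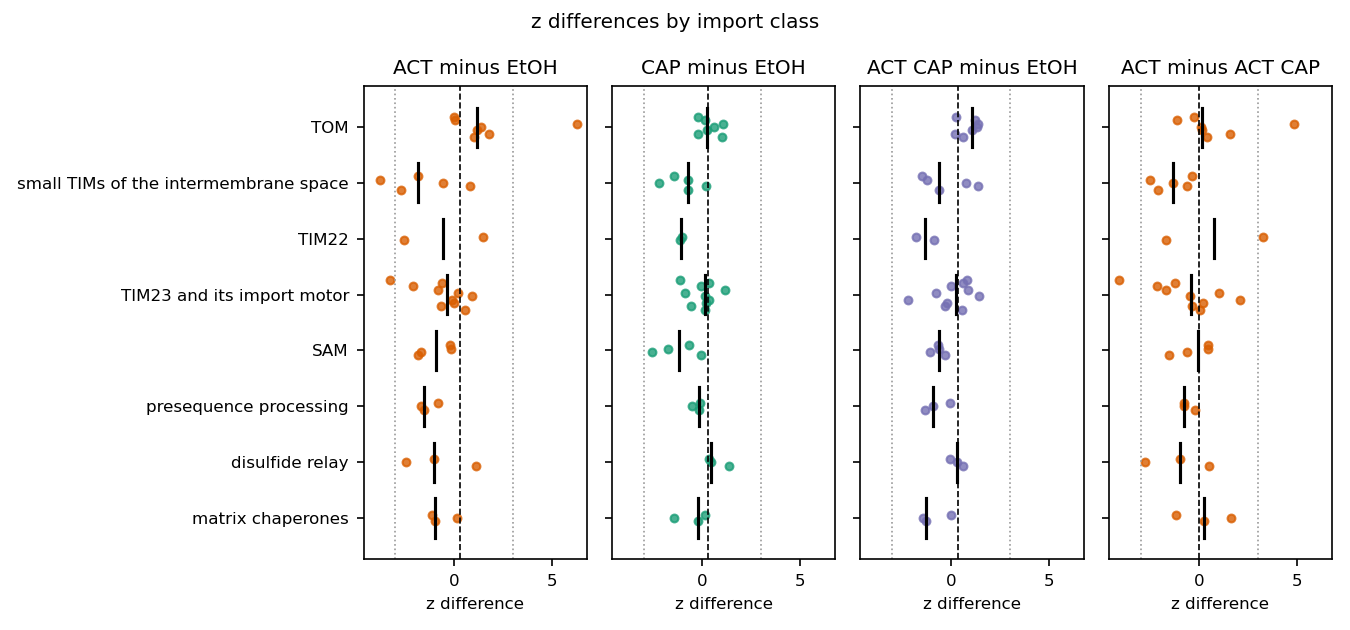
z difference of each gene (points) by import class, with the class median (black bar), for ACT, CAP and ACT CAP against EtOH and for ACT against ACT CAP (horizontal axes); the dashed line is the median of all genes and dotted lines mark -3 and 3. In ACT against EtOH the TOM median of 1.20 lies right of the line and the other 7 class medians lie left of it.

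By class, TOM alone had a positive median in ACT against EtOH. The median z difference from EtOH was 1.20 for TOM and between -1.83 and -0.367 for the other 7 classes, against 0.317 for all genes. These signs held with z centred or standardised in each condition. With the running median over the EtOH z removed, the TOM median was only 0.0185, and with that over the mean z it was 0.681. TIM22 holds only 2 genes, which differed from EtOH by 1.46 and -2.56. For CAP the medians ran from -1.22 for SAM to 0.424 for the disulfide relay, and those of TOM, TIM23 and the relay fell below 0 with standardised z. For ACT CAP they ran from -1.32 for TIM22 to 1.07 for TOM, and those of TIM23 and the relay fell below 0 with centred or standardised z. No difference between classes was tested.

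Over all 37 genes the median z difference from EtOH was -0.542 (ACT), -0.126 (CAP) and -0.0219 (ACT CAP), against 0.317, 0.285 and 0.360 for all genes. In ACT 2 members lay at -3 or less, TIMM8B and TIMM17A, against 0.769% of all genes, and 0 were called lower, against 0.157% of all genes. In CAP, 0 of 37 were called in either direction, against 0.188% of all genes called higher and 0.0628% lower, and 0 lay beyond 3 or -3, against 1.13% and 0.183%. In ACT CAP, again 0 of 37 were called, against 0.194% higher and 0.0837% lower, and 0 lay beyond 3 or -3, against 1.27% and 0.188%.

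Because members are mostly low in EtOH, and genes low in EtOH tended to have a higher z in the drugs, the differences were also taken from the running median. Ordered by the EtOH z, this left a median of -1.17 for the members with ACT, -0.970 with CAP and -0.885 with both. Ordered by the mean z of the conditions compared, it left -0.727, -0.564 and -0.554, against 0 for all genes in each. With the first of these, 4 members were called lower in ACT, namely TIMM8B (scaled difference -3.81), TIMM13 (-3.63), AIFM1 (-3.51) and TIMM17A (-3.45). The share of all genes called lower in that fit was not counted, so the 4 cannot be set against it. With the second, 0 were, against 35 of all 19112 genes, the nearest member being TIMM8B (-3.41). These calls in ACT against EtOH therefore depended on how the trend was removed, whereas TOMM7 was called higher under both.

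A further 19 genes of import and folding, listed by function, gave 0 calls in any comparison. Of all genes, 0.0628% to 1.08% were called per comparison and direction, so few calls could arise among 19 genes. CLPB, a disaggregase of the intermembrane space, had a z of -4.33 in EtOH, -6.64 with ACT, -3.80 with CAP and -4.35 with both, and PITRM1, which degrades cleaved presequences, had -3.65, -6.22, -3.54 and -6.64. Both were low in ACT, and PITRM1 also in ACT CAP, by -2.98 against EtOH (scaled difference -3.34). This did not pass, though it did (-4.18) with the trend over the EtOH z removed. Of the 19 genes, however, 11 had a positive z difference from EtOH in ACT and 8 a negative one. Their median was 0.0958, against 0.317 for all genes, and the highest was that of TOMM40L, 2.04. TIMM29, listed as C19orf52, a subunit of the carrier translocase, had -6.18, -6.08, -6.14 and -7.64, far below TIMM22 in each condition. DNLZ, which keeps HSPA9 soluble, had -8.20, -7.43, -7.53 and -6.70, the lowest z in EtOH of these 19 genes and the 37.

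Values of 2 other gene groups are set beside these. The 77 mitoribosomal proteins had a median z of -5.43 in EtOH, -2.90 with ACT, -4.31 with CAP and -4.81 with both, and the 37 import and folding genes -3.47, -4.26, -3.93 and -3.85. In ACT against EtOH 15 of the 77 were called higher and 0 lower, against 1.08% and 0.157% of all genes. The 8 genes of the cytosolic chaperonin CCT, which are needed in all cells, had -3.25, -3.54, -3.25 and -3.11. They gave 0 calls, against 0.0628% to 1.08% of all genes per comparison and direction. Their median z difference from EtOH in ACT was -0.394, beside -0.542 for the 37 genes. No test was made between these groups.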

How the data were processed

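The members and lists were chosen with earlier results of these data known. The screen had 12 samples, grouped by their treatment labels. The authors trimmed and quality-filtered the reads in a single batch, analysed the guide counts with MAGeCK (version not given in the sources used here), and deposited a single table of gene scores. Its beta and z scores per condition were used. The p-values in the authors' deposited table served only where a z stood as a calendar date (1146 of 76448 values, 1 of the 148 of the members). Such a z was rebuilt from its Wald p-value, with the sign taken from beta, a step that came within 0.00102 of the intact values, and 1 beta, of a gene that is no member, was taken as z times the EtOH standard error. The other p-value and FDR columns were not used.

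Standard errors were beta divided by z. Ratios of beta difference to joined standard error had the median of all genes subtracted and were divided by their spread, taken from the median absolute deviation. P-values were adjusted by the Benjamini-Hochberg method. The interaction was ACT CAP minus CAP minus the difference of ACT and EtOH. Alternatives were a stricter adjusted p of 0.01, a standard normal null, removal of a running median, genes with exactly 4 sgRNAs, a z difference of 3, other scalings of z and the mean. All members were named by z, with full statistics for those past the test in any comparison, the extremes of each class and some others chosen after their values were seen, as were the genes named outside the 37. Both genes of paralog pairs were named. Guide and protein sequences were not used here. Calculations ran in Python 3.11.15 with scipy 1.17.1, pandas 2.3.3 and numpy 2.4.6, and plots were drawn with matplotlib 3.10.9.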

Additional observations from a re-analysis of the deposited data

Results flagged for a closer look

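For 2 of the 37 genes the effect of ACT differed with and without CAP by the interaction test over all genes. The scaled interaction was -3.77 for TOMM7, whose z changed from EtOH to ACT by 6.26 and from CAP to ACT CAP by 0.357. It was 3.65 for TIMM17A, with changes of -3.27 and 1.96. Both lay close to the smallest called value of 3.63, and neither passed against a standard normal null or at an adjusted p of 0.01.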

How the results depend on the processing

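No paired analysis was possible because the table holds fitted values per condition and not per replicate, so the replicate block and fits without single replicates were not run. The 36 alternative medians of the members' z differences kept the sign of the value reported, but some were too small for the sign to mean much. That of ACT CAP against EtOH was -0.0001 without the member of largest difference. That of ACT against CAP was -0.00887 with standardised z. Of the 71 alternative counts of members, 13 moved and are given here. With the trend over the EtOH z removed, 4 members were lower in ACT than in EtOH in place of 0, with the share of all genes not counted. By a z difference of 3 or beyond, 2 were lower there, 2 were higher in ACT than in ACT CAP (TIMM22 and TOMM7), and 1, TIMM8B, was lower in ACT than in CAP. Against a standard normal null 0 members were higher or lower between ACT and ACT CAP, 0 higher in ACT than in CAP, and 0 higher or lower in the interaction, in place of 1 each. At an adjusted p of 0.01, 0 were lower in ACT than in ACT CAP and 0 passed the interaction in either direction. Ordered by beta, 20 members were in the lowest 10% of genes in EtOH in place of 10. The depth of single samples was not used here, and the smallest called differences set what could be detected.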
